A study of Mus musculus with 8 samples.

Results

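The intervals described here are stretches with the histone mark H3K27ac at the ends of genes, listed for CD8+ T cells treated with EnPGC-1 and not overlapped by any interval listed for the vehicle DMSO. They were chosen by measured values: distinct intervals of the EnPGC-1 peak list on chromosomes 1 to 19 that shared no base with a DMSO interval and had their nearest base within 1 kb of either end of a protein-coding mm10 RefSeq gene. The rule gave 16406 members among 247434 EnPGC-1 intervals on those chromosomes, or 8.63% of the 189996 that overlapped no DMSO interval. The 95% exact binomial (Clopper-Pearson) interval of that share was 8.51 to 8.76; such intervals follow shares in parentheses and cover counting error only. Their ends were then divided by whether a DMSO interval lay within 5 kb of that same end. Ends with none are called DMSO-free, and the others DMSO-near. Of the members, 7345 lay at DMSO-free ends only, 8990 at DMSO-near ends only and 71 at ends of both kinds.

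The study asked how acetylation across the genome differs after EnPGC-1, under a title on the epigenetic induction of mitochondrial biogenesis. CD8+ T cells, the cytotoxic lymphocytes, came from lymph node and spleen of C57BL/6 mice. All cells were stimulated through the T cell receptor with antibodies to CD3 and CD28, and were treated for 48 h with DMSO or with EnPGC-1, which the labels class among "PIPs" without a dose. Each treatment had 2 H3K27ac samples and 1 input, and 2 IgG samples came from DMSO cells. The 2 deposited interval lists hold 1 list per treatment with no replicate number, so the spread between samples cannot be seen and no difference below has a test. Nothing in the sources used here says that samples of a treatment came from separate animals or cultures.

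H3K27ac is the acetylation of a lysine in the tail of histone H3. It is laid down mainly by the acetyltransferases p300 and CBP and marks active promoters, where it flanks the transcription start, and active enhancers. Most mammalian promoters of widely expressed genes lie in CpG islands, stretches that keep the CG pairs which the rest of the genome has largely lost, whereas many tissue-restricted genes have promoters poor in CG.

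Promoters of starts with a high-scoring member within 1 kb, taken from both kinds of start, show the range of sequence at which members lay. Each line gives 170 bases before to 30 bases after the RefSeq start, 5′ to 3′ on the gene's strand, from the RefSeq promoter table of GRCm38.p6, the assembly of mm10, and capitals mark CG pairs. The positions are Psmc2 at chr5:21785105-21785304, plus strand, Mdh1 at chr11:21571905-21572104, minus strand, Fis1 at chr5:136953105-136953304, plus strand, Zeb2 at chr2:45117413-45117612, minus strand, Ptpn6 at chr6:124738680-124738879, minus strand, Zap70 at chr1:36761628-36761827, plus strand, and Zfp988 at chr4:147305434-147305633, plus strand.
Psmc2: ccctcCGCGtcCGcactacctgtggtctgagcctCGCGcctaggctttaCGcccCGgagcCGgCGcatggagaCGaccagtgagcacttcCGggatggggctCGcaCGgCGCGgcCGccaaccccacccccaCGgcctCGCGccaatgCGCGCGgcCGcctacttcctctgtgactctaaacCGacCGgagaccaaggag
Mdh1: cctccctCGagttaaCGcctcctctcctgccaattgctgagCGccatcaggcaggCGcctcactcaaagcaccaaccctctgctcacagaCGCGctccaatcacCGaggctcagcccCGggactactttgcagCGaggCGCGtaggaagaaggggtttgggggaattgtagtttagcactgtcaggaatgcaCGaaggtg
Fis1: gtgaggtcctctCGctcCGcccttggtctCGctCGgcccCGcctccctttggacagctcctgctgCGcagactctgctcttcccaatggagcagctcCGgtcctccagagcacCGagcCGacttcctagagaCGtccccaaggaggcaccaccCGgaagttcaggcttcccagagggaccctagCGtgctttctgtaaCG
Zeb2: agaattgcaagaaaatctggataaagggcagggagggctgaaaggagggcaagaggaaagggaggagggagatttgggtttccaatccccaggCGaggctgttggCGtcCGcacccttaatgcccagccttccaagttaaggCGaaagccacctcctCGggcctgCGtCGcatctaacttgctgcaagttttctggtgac
Ptpn6: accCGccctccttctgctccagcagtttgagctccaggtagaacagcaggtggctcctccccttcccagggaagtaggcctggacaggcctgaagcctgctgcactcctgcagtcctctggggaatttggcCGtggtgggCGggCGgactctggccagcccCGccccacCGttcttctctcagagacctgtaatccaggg
Zap70: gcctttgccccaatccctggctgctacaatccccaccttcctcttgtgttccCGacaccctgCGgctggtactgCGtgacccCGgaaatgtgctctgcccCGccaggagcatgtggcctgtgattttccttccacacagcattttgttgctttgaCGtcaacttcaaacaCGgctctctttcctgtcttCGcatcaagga
Zfp988: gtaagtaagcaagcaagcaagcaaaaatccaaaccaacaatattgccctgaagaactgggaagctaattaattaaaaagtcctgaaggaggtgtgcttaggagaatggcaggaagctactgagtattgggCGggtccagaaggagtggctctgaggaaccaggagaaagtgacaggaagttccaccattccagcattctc
Psmc2, which encodes an ATPase subunit of the proteasome cap, had 25 CG pairs in this stretch, and 113 of its 200 bases lay in a member. For Mdh1, the cytosolic malate dehydrogenase, there were 12 CG pairs and for Fis1, a mitochondrial fission factor, 13, and in both all 200 bases lay in members. Zeb2, a transcription factor of effector T cells, had 7 CG pairs with 192 bases in a member. Ptpn6 encodes the phosphatase SHP-1, and Zap70 the kinase of T cell receptor signalling; they had 6 and 8 CG pairs, and members covered all 200 bases at both. The member over the Zap70 stretch had a score of 3.18, and the higher-scoring members of Zap70 and Ptpn6 lay upstream of the bases shown. Zfp988, a zinc finger gene in a family of close copies, had 1 CG pair, with 118 bases in a member. The RefSeq promoters ran from CG-rich to CG-poor, and the shares by CG content are given below.

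At the level of genes, 12103 of 20665 (58.6%) had a member within 1 kb of an end. A member at a DMSO-free end was found in 6220 genes (30.1%) and a member at a DMSO-near end in 7076 (34.2%), and 1193 genes had both kinds. The same rule applied with the lists exchanged gave 1927 DMSO-only intervals at gene ends, and 457 genes (2.21%, 2.02 to 2.42) had a DMSO interval within 1 kb and no EnPGC-1 interval there. No interval of either list lay within 1 kb in 4974 genes. The EnPGC-1 list was longer at all places, 247434 against 79842 intervals on these chromosomes, and the read depth of the samples is unknown here. List length moves with depth, enrichment and the peak caller's control, and the part these play in the members was not tested. A list also cannot tell more cells with the mark from more of the mark per cell.

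Members made up a larger share of the EnPGC-1 intervals at gene ends than DMSO overlaps did, 16406 of 25245 (65.0%, 64.4 to 65.6). Away from gene ends the absence of DMSO overlap was more frequent still. Of all EnPGC-1 intervals 23.2% (23.0 to 23.4) overlapped a DMSO interval, whereas at gene ends 35.0% (34.4 to 35.6) did. Put the other way, 15.4% (15.1 to 15.7) of the overlapping intervals lay at gene ends, against the 8.63% among EnPGC-1-only intervals and 9.19% (8.81 to 9.59) of the 20960 DMSO-only intervals. Gene ends thus held a smaller part of the intervals found in 1 list only than of those found in both. By chromosome, the share of genes with a member ran from 48.5% on chromosome 14 to 71.0% on chromosome 11.

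Members were of middling width and of ordinary score. Their median width was 570 bp, with quartiles of 396 and 869 bp and a maximum of 6177 bp, against 914 bp for the 8839 gene-end intervals that overlapped DMSO and 455 bp for the 173590 EnPGC-1-only intervals elsewhere. The deposited score, taken to be a q-value on the −log10 scale, had a median of 3.59 in members, 4.21 in the overlapping gene-end intervals and 3.64 in the whole EnPGC-1 list. More than 1 summit was listed for 26.8% of members, 51.0% of overlapping gene-end intervals and 14.8% of EnPGC-1-only intervals away from ends. Members therefore stood between those 2 sets in width and in number of summits. The DMSO-free and DMSO-near members were alike in these values, with median widths of 547 and 587 bp and median scores of 3.64 and 3.56.

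**Figure D1:**
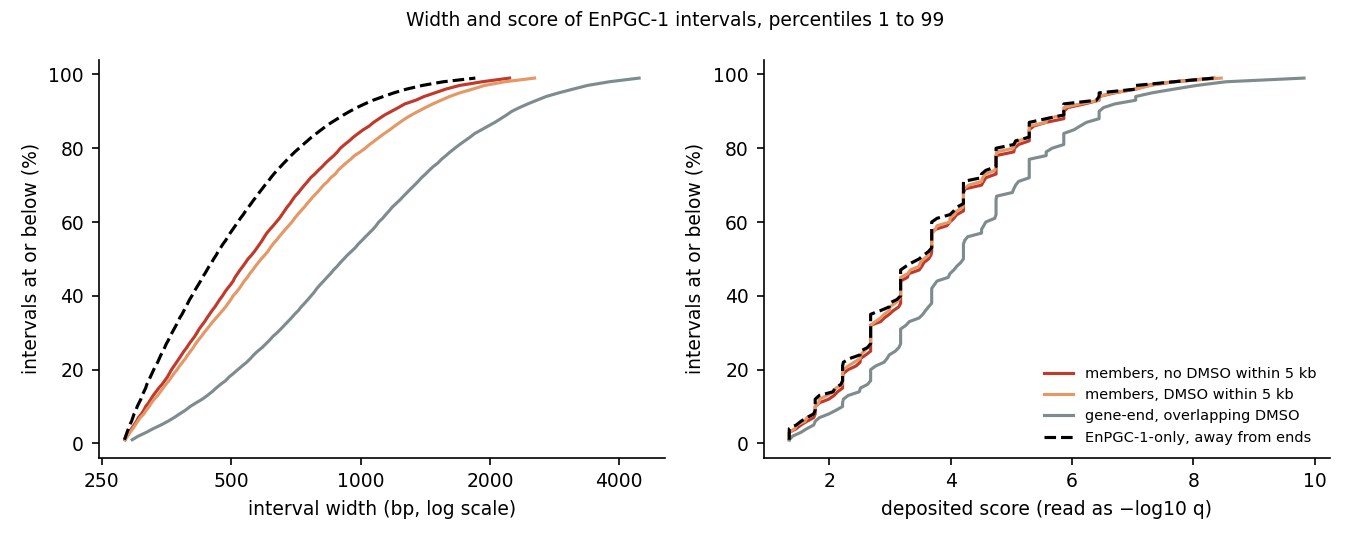
Percentiles 1 to 99 of interval width (left, bp, log scale) and deposited score (right, read as −log10 q) for members at DMSO-free ends (red), members at DMSO-near ends (orange), gene-end EnPGC-1 intervals that overlap DMSO (grey) and EnPGC-1-only intervals away from gene ends (dashed black). The member curves lie between the dashed and the grey curve in width, with medians of 547 and 587 bp against 455 and 914 bp, and lie on the dashed curve in score.

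How many EnPGC-1 intervals lay around a member is in part fixed by the division of ends, since an EnPGC-1 interval that overlaps a nearby DMSO interval can occur near DMSO-near ends only. At DMSO-free ends, 2614 of 7191 (36.4%, 35.2 to 37.5) had the member as their only EnPGC-1 interval within 5 kb, against 269 of 8837 (3.04%, 2.70 to 3.42) at DMSO-near ends, and the median number of EnPGC-1 intervals there was 2 and 4. The bases that members covered within 1 kb were almost equal, with medians of 553 and 549. At 7460 of the DMSO-near ends (84.4%, 83.6 to 85.2) a DMSO interval within 5 kb overlapped another EnPGC-1 interval, so that the member lay beside a stretch found in both lists. The other 1377 ends had DMSO intervals nearby that no EnPGC-1 interval overlapped. Of all 79842 DMSO intervals on these chromosomes, 20960 overlapped no EnPGC-1 interval, so such overlap was common everywhere. The count by end takes any DMSO interval within 5 kb and is not the same measure. Across members, the median gap to the nearest DMSO interval was 12622 bp for the DMSO-free and 1403 bp for the DMSO-near set, which the rule in part fixes.

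The thresholds of the rule fell within a continuous range. Nearest to the overlap limit, the members at Cdkn2d and H13 lay 1 and 2 bp from a DMSO interval, and the intervals at Adprhl2 and Atp11a shared 1 bp with one and were left out. On the distance limit, members at Olfr1298 and Phgr1 were 1000 bp from the gene end, and intervals 1001 bp from Olfm1 and Defb25 were not taken. For the division of ends, the nearest DMSO interval was 5000 bp away at Txndc11 and 4997 bp at Gcdh, counted as DMSO-near, and 5001 bp at Fgf9 and 5002 bp at Tlr2, counted as DMSO-free.

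Which end of the gene carried the member was not used by the rule. A strand was known for 16457 genes (79.6%), those with an entry in the RefSeq promoter table. Starts that were DMSO-free had a member in 3851 of 8205 cases (46.9%, 45.9 to 48.0), whereas DMSO-free 3′ ends had one in 1929 of 8567 (22.5%, 21.6 to 23.4). The 3851 are 23.4% of all starts of known strand. At DMSO-near ends the order was the other way and the gap small, with members at 41.5% of starts (40.4 to 42.6) and 45.4% of 3′ ends (44.3 to 46.5). The rule in part shapes that order, since an EnPGC-1 interval over a DMSO interval cannot be a member and DMSO intervals peaked at starts. How large that part is was not tested. Among DMSO-free ends a member was thus more frequent at starts than at 3′ ends. With the lists exchanged, DMSO-only intervals lay at 5.84% (5.08 to 6.68) of the 3422 starts without an EnPGC-1 interval within 5 kb and at 1.58% (1.24 to 1.99) of the 4553 such 3′ ends, so the order of starts and 3′ ends was the same in the shorter list.

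Of the 4987 genes of known strand with a member at a DMSO-free end, 3058 (61.3%) had it at the start alone, 1136 at the 3′ end alone and 793 at both ends. Genes with a member at a DMSO-near end were spread more evenly, 2007 at the start alone, 2167 at the 3′ end alone and 1417 at both of 5591. The exclusion of intervals that overlap DMSO has a part in this spread as well. The member covered the annotated end itself at 49.3% of DMSO-free starts with a member and at 17.3% of such 3′ ends. Some members cannot be given to 1 gene: 1924 lay near ends of 2 or more genes and 556 near the starts of 2.

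**Figure D2:**
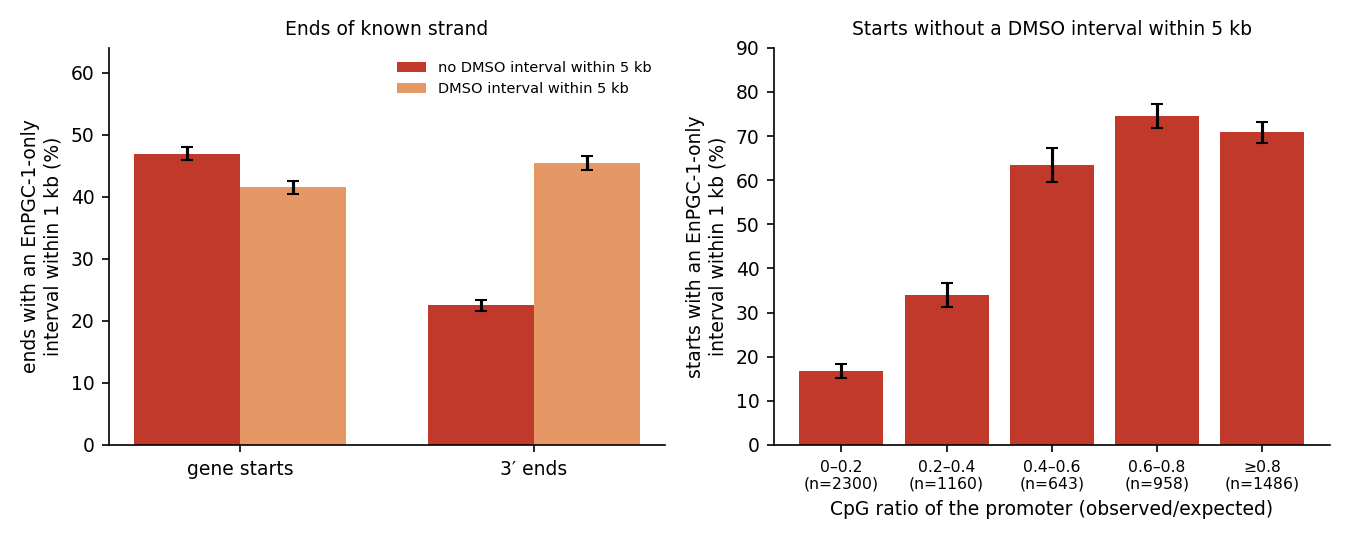
Left, the share of gene starts and 3′ ends of known strand that had an EnPGC-1-only interval within 1 kb, for DMSO-free ends (red) and DMSO-near ends (orange); right, the same share for DMSO-free starts by the CpG ratio of the promoter, with the number of starts under each bar. Error bars give the 95% exact binomial range, which covers counting error alone. Among DMSO-free ends starts stand at 46.9% and 3′ ends at 22.5%, and the share rises from 16.8% in the lowest CpG band to 74.6% in the band of 0.6 to 0.8.

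Around all 16457 starts, the EnPGC-1-only intervals had a narrow maximum just inside the gene. They covered 23.6% of starts at a distance of 200 bp into the gene and 7.97% on average at 8 to 10 kb on either side, a ratio of 2.96. DMSO intervals peaked at the same distance, at 13.8% over 3.35%, a ratio of 4.12, and the EnPGC-1 intervals that overlapped DMSO at 16.8% over 5.06%, a ratio of 3.32. All 3 profiles had the same position and form, and the EnPGC-1-only profile had the highest flank. It was lopsided, with 19.6% of starts covered at 500 bp into the gene and 9.08% at 500 bp upstream. Among starts with a member, coverage at 200 bp reached 60.4% for the DMSO-free and 45.4% for the DMSO-near set; the rule places an interval there, so these heights describe the choice of members.

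**Figure D3:**
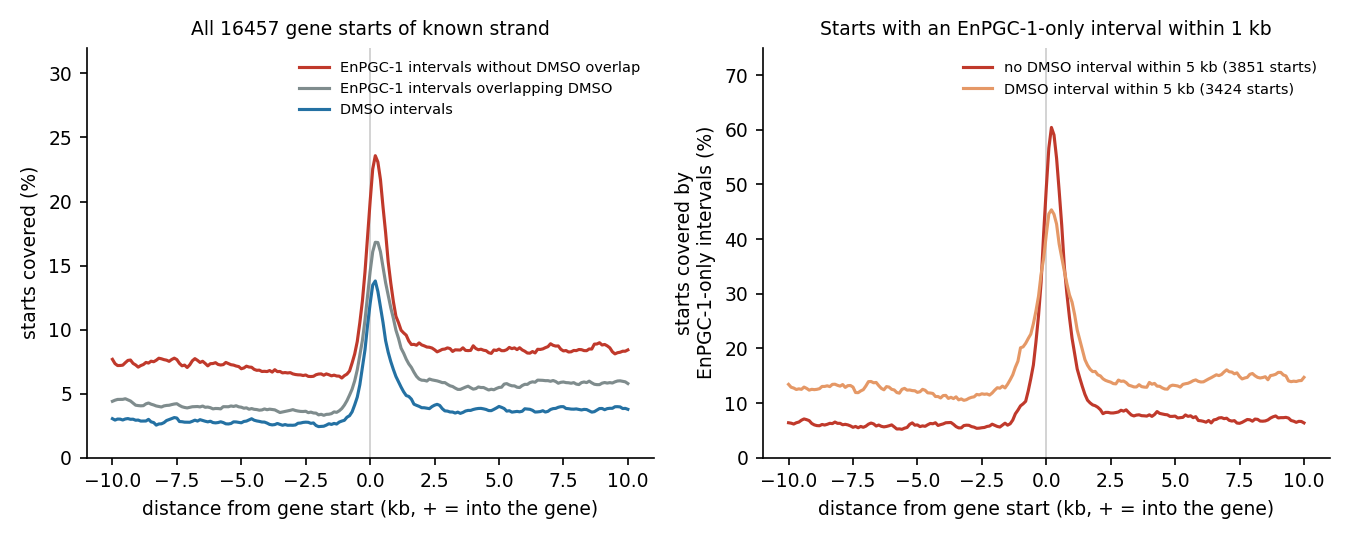
Percent of gene starts covered by intervals against distance from the start (kb, positive into the gene), for all starts of known strand (left: EnPGC-1-only intervals red, EnPGC-1 intervals overlapping DMSO grey, DMSO intervals blue) and for starts with a member (right: DMSO-free red, DMSO-near orange). Each curve on the left peaks at 200 bp into the gene, at 23.6%, 16.8% and 13.8%.

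The CpG content of the promoter, which the rule did not use either, went with the presence of a member at DMSO-free starts. A RefSeq promoter of 300 bases, from 250 before to 50 after the start, matched the annotated start within 100 bp for 12679 genes, and its CpG ratio is the number of CG pairs over that expected from its C and G content. DMSO-free starts with a ratio under 0.2 had a member in 386 of 2300 cases (16.8%, 15.3 to 18.4). The share was 33.9% (31.2 to 36.7) between 0.2 and 0.4 and 63.5% (59.6 to 67.2) between 0.4 and 0.6. It was 74.6% (71.8 to 77.4) between 0.6 and 0.8 and 70.9% (68.5 to 73.2) from 0.8 upward. The share with a member thus rose with the CpG ratio up to 0.8.

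Receptor genes of smell, taste and pheromones, which are CpG-poor and silent in lymphocytes, formed part of the lowest band. Without them the share in that band was 22.6% (325 of 1439, 20.4 to 24.8), and that of starts with a ratio of 0.6 or more was 72.4% (70.6 to 74.2). At DMSO-near starts the shares by band lay between 39.0% and 44.8% with no order. An EnPGC-1 interval over a DMSO interval cannot be a member there, and the part of this exclusion in these shares was not tested. The DMSO list followed CpG content as well: a DMSO interval lay within 5 kb of 25.8% of starts in the lowest band and of 61.8% between 0.6 and 0.8. GC content rises with the CpG ratio, with a median of 58.3% in promoters of DMSO-free starts with a member and 42.0% at starts without any interval, and its part in these shares was not tested.

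The promoters of the 2 kinds of member start had nearly equal CpG ratios. Its median was 0.699 at DMSO-free starts with a member, 0.695 at DMSO-near starts with one and 0.700 at starts with an interval found in both lists. The 416 starts with a DMSO interval alone within 1 kb had a median of 0.754, and the 2675 starts with no interval of either list within 5 kb one of 0.161. Of 11 short words counted on both strands of these promoters, 4 are given here. The first, GGGCGG, the GC box, was present in 56.0% of DMSO-free member promoters, 60.0% of DMSO-near ones, 13.5% of those without any interval and 45.6% of all. CCGGAAG, an ETS-type word, stood in 15.9%, 15.1%, 4.56% and 12.4%. TATAAA, an element of some core promoters, stood in 10.8%, 8.72%, 30.1% and 15.2%, and AAGGTCA, the word of estrogen-related receptors, in 3.08%, 3.48%, 6.28% and 4.12%. The GC box and the ETS-type word hold a CG pair themselves, so that their shares follow the CpG ratio, and a match describes letters, not binding. Of these 4, GGGCGG and the ETS-type word were more frequent at both kinds of member start than at starts without intervals, and the other words were less frequent. Among the words not given above, AAGATGGC, which has no CG pair, stood in 4.23%, 3.32%, 1.72% and 3.30% of the same sets. At starts with an interval found in both lists its share was 3.47%. The DMSO-near share was thus near that of all starts.

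Members at DMSO-free starts with a CpG ratio below 0.2 were narrower than those at higher ratios. The 437 members there had a median width of 462 bp, and 16.5% had more than 1 summit. They covered 38.1% of the 386 starts themselves. For the 882 members at ratios from 0.2 to 0.6 these values were 584 bp, 26.6% and 60.4% of 801 starts. For the 1928 members at ratios of 0.6 or more they were 570.5 bp, 25.1% and 53.1% of 1768 starts. The middle band thus had the highest of these values. Median scores were 3.59, 3.69 and 3.48 in the same order.

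The highest scores were at genes in duplicated blocks. Among DMSO-near members the top was a 317 bp interval 777 bp from an end of Sfi1, at chr11:3130757-3131073, with a score of 119. It was followed by LOC100504180 at 32.5, Gm38510 at 22.6, Smok2a at 18.2 and A530032D15Rik at 17.0. These loci and H2-Q7, at 13.8, belong to families or blocks with near-identical copies, where reads may be split or piled up, and their scores are uncertain for that reason. Dlgap3, a postsynaptic scaffold gene, had a member with a score of 14.3 over its start. Nkx1-1, a homeobox gene, had a member of 2304 bp with 14.1 near its 3′ end, Adam17, a membrane sheddase, one with 13.4, and Hdac11, a histone deacetylase, one of 2926 bp with 11.5. The score had no upper range particular to gene-end members: 50 of 16406 (0.305%) reached 10, against 0.345% of all EnPGC-1 intervals.

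Among DMSO-free members the highest score was 16.4, at the start of Zfp988, again in a multicopy family. Next came Lca5, which encodes a protein of the cilium, with 14.3 in an interval 301 bp upstream of its start, and a shared interval of 889 bp with 14.3 that lay 58 bp from the start of Psmc2 and 47 bp from an end of Dnajc2, a ribosome-associated chaperone. Rps27l, a ribosomal protein paralogue, had a member with 12.8 that began 924 bp into the gene. Bmp8a, a growth factor of the BMP family, Tex19.1, a germ cell gene, Ythdf2, a reader of m6A in RNA, Nxph2, a neuronal glycoprotein gene, and Cpa6, a carboxypeptidase gene, each had a member with 12.4. Members covered the start at Bmp8a, Tex19.1, Ythdf2 and Nxph2. No DMSO interval lay within 5 kb of any of these ends, and the nearest was from 5420 bp away from the member at Bmp8a to 49938 bp at Cpa6. The genes had no common tissue, and germ cell, neuronal and widely expressed genes stood side by side.

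The widest members ran over several kilobases and held many summits. At DMSO-free ends, Per1, a core gene of the circadian clock, had 5305 bp with 8 summits just inside its 3′ end. Lsm7, an RNA-binding subunit of the splicing machinery, lay wholly within a member of 4861 bp at chr10:80851592-80856452. Because the nearest DMSO interval was 7016 bp from its 3′ end and 4632 bp from its start, the same member counts in both sets. Pmpca, a subunit of the peptidase that trims imported mitochondrial proteins, had 4595 bp, and Jph4, a junctophilin of neurons, 4405 bp over its start. At DMSO-near ends the widest were 6177 bp at Tmem119, 5402 bp at the 3′ end of Cenpm, a centromere protein gene, 5297 bp over Dnajb8, a chaperone of the testis, and 4934 bp over the start of Mab21l4. Taking both ends together, members covered the most bases at Lsm7 (4002), Ahnak2 (3593), Hlx (3555), Ghrhr (3492) and Cd9 (3277).

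For the PGC-1 network, the coactivators that drive mitochondrial biogenesis with their partners and targets, 12 of 36 genes (33.3%) had a member at a DMSO-free end and 18 at a DMSO-near end. All protein-coding genes gave 30.1% and 34.2%, so the first share was near the background. The coactivator genes Ppargc1a, Ppargc1b and Pprc1 had members only at DMSO-near ends. Perm1, a muscle regulator downstream of PGC-1, had a member of 1764 bp across its start with a score of 6.45. Within 5 kb of that start EnPGC-1 intervals covered 2227 bases and DMSO intervals none. Tfam, which packs and transcribes mitochondrial DNA, had a member of 959 bp with 4.75 across its start, and 2772 against 0 bases covered. Esrrg, an estrogen-related receptor that PGC-1 coactivates, had a member of 2135 bp with 8.34, 62 bp inside its start, beside a DMSO interval of 306 bases. Mterf3, of the mitochondrial termination factor family, had a DMSO interval alone.

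Among genes of oxidative phosphorylation, the subunits of the respiratory chain and ATP synthase, 24 of 73 (32.9%, 22.3 to 44.9) had a member at a DMSO-free end. At a DMSO-near end 26 (35.6%) had one. All genes gave 30.1% and 34.2%, so both shares were near the background. The 24 genes were spread over the complexes. Ndufa9 and Ndufs3 of complex I, Sdhd of complex II, Uqcrb and Cyc1 of complex III, Cox5b of complex IV and Atp5pb of ATP synthase were among them. Uqcrb had a member of 634 bp with a score of 7.68 across an end, Ndufb4 one of 524 bp with 7.05 near its 3′ end, and Atp5o, at a DMSO-near 3′ end, one of 1012 bp with 7.80. A DMSO interval alone was found for 4 genes, among them Ndufs6 (score 5.11, 3′ end) and Ndufa4 (4.24, start).

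Fatty acid oxidation genes had a member at a DMSO-free end in 17 of 38 cases (44.7%, 28.6 to 61.7), an interval that includes the 30.1% of all genes. With the EnPGC-1 list cut to its highest-scoring intervals, as many as in the DMSO list, the share was 10.5% (2.94 to 24.8). That of the TCA cycle genes was then 29.6% (13.8 to 50.2), and 2443 of all 20665 genes had such a member. In the full lists the 17 genes included Cpt2, the inner carnitine palmitoyltransferase, and Acadl, an acyl-CoA dehydrogenase. Hadha and Hadhb, the subunits of the trifunctional protein, were also among them. Decr1, an auxiliary reductase of unsaturated fatty acids, had a member of 680 bp with 7.68 across an end, and Ehhadh, a peroxisomal enzyme, one of 716 bp with 5.87 across its start. Acads, the short-chain dehydrogenase, had 1797 bp with 9.06 near a DMSO-near 3′ end.

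In the TCA cycle list 10 of 27 (37.0%) had a member at a DMSO-free end, among them Cs, citrate synthase, and Fh1, fumarase. Mdh1 had a member of 994 bp with 7.05 and 3 summits across its start, the only EnPGC-1 interval within 5 kb, and the nearest DMSO interval was 124177 bp away. Pdhx, a component of the pyruvate dehydrogenase complex, had 327 bp with 7.24 near its 3′ end. Genes of mitochondrial dynamics and quality control gave 11 of 37 (29.7%), with Fis1 (846 bp, 6.13, across its start) and Hspd1, the mitochondrial chaperonin (1036 bp, 5.30), at the top. Mfn2 and Dnm1l, which fuse and divide mitochondria, had a DMSO interval alone at their starts. In glycolysis 6 of 25 (24.0%) had a member at a DMSO-free end, led by Gpi1 and Ldhb, both with 4.75 at the 3′ end. The binomial intervals of these lists were 19.4 to 57.6, 15.9 to 47.0 and 9.36 to 45.1 in the same order. Each includes the 30.1% of all genes.

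Over the 5 mitochondrial lists together, 74 of 211 genes (35.1%, 28.6 to 41.9) had a member at a DMSO-free end, near the 30.1% of all genes and the 31.8% of all genes other than receptors. A member at a DMSO-near end was present in 86 of them (40.8%).

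**Figure D4:**
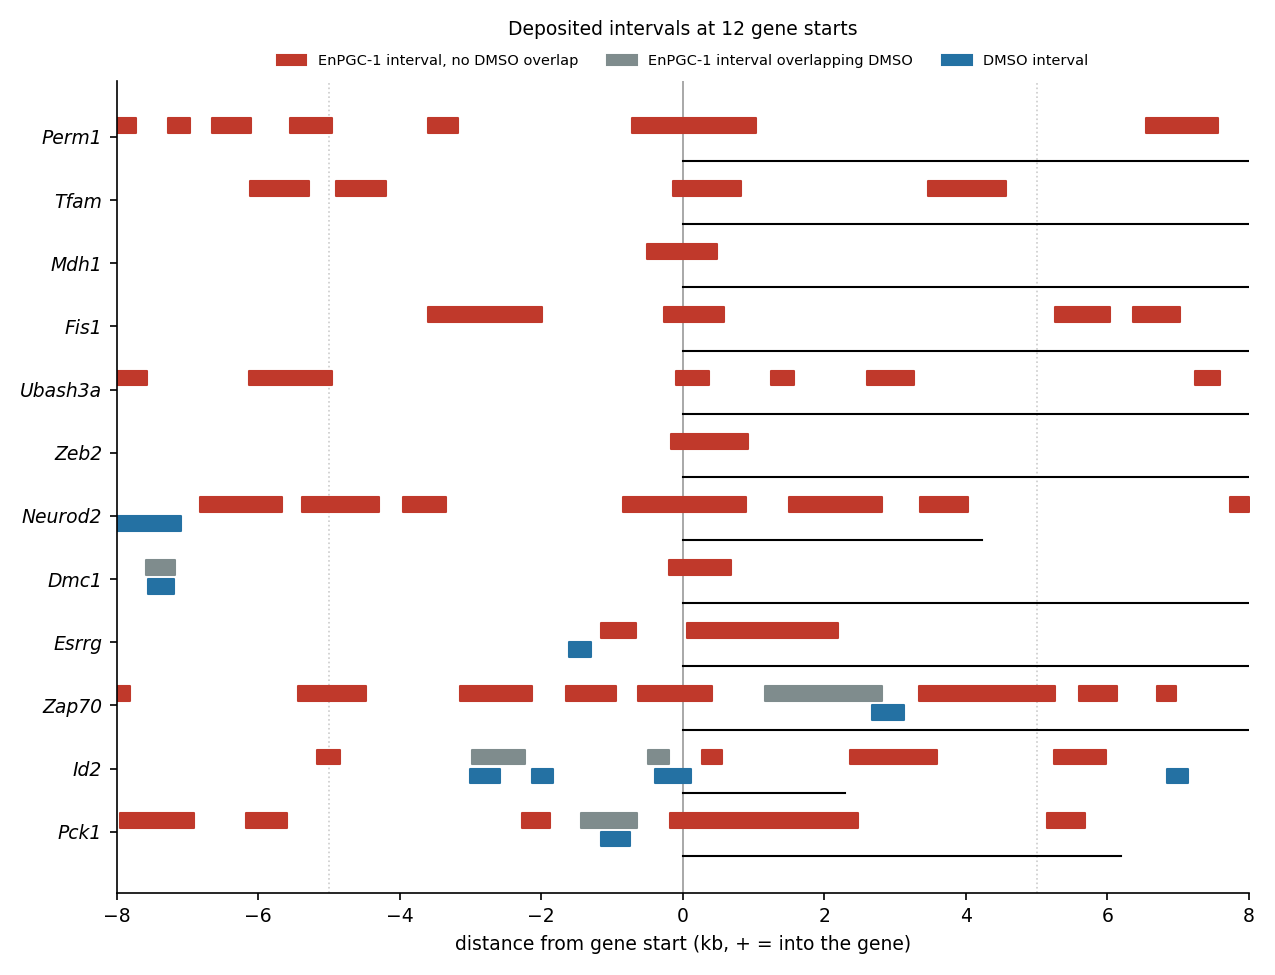
Deposited intervals around 12 gene starts drawn from the named genes after their values were seen, by distance from the start (kb, positive into the gene); for each gene the upper row gives EnPGC-1 intervals (red without, grey with DMSO overlap), the lower row DMSO intervals (blue), and the black line the gene. Perm1 to Dmc1 have no DMSO interval between the dotted lines at 5 kb, and Mdh1 has a single EnPGC-1 interval, of 994 bp.

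Genes of T cell identity had a member at a DMSO-free end in 12 of 32 cases (37.5%, 21.1 to 56.3), an interval that includes the 30.1% of all genes. Among them were Cd3g, Cd247 and Cd8b1 of the receptor and coreceptor and Lck, the kinase that starts its signal. Ikzf3, the transcription factor Aiolos, had 988 bp with 5.86 across an end, and Ubash3a, a suppressor of receptor signalling, 463 bp with 5.58 across its start. Zap70 was DMSO-near: 6 EnPGC-1 intervals covered 6620 bases within 5 kb of its start and 1 DMSO interval covered 446, and its best member, 939 bp upstream, had a score of 11.5. A stretch covered in DMSO was thus flanked by several EnPGC-1 intervals at this gene.

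Activation and memory genes had most of their members at DMSO-near ends. Activation genes had 5 of 32 (15.6%, 5.28 to 32.8) at DMSO-free and 19 (59.4%) at DMSO-near ends, and the latter included Myc, Batf and Nfatc1, transcription factors of the activated T cell. Memory and naive genes had 2 of 20 and 11 of 20, the latter with Tcf7 and Lef1, the factors of the naive and memory state. Of all genes, 30.1% had a member at a DMSO-free end and 34.2% at a DMSO-near end. A DMSO interval lay within 1 kb of an end in 20 of the 32 activation and 11 of the 20 memory genes, against 8767 of all 20665, which limits the number of DMSO-free ends these lists could have. In the effector list 8 of 31 (25.8%) had a member at a DMSO-free end and 10 at a DMSO-near end, with Zeb2 at 6.45 over its start, and Ifng and Tnf, the main inflammatory cytokines, among them. Id2, a regulator of effector differentiation, was DMSO-near, with a member of 294 bp and a score of 7.05 at 265 bp inside its start, 142 bp from a DMSO interval.

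Inhibitory receptor and exhaustion genes had 10 of 30 (33.3%) at DMSO-free ends, Pdcd1, the receptor PD-1, and Tigit among them, and 13 at DMSO-near ends, with Lag3 and Tox. Ptpn6, which acts downstream of inhibitory receptors, had a member of 1677 bp with 8.98, 613 bp upstream of its start, the highest score among DMSO-free ends of the T cell lists. For the 5 T cell lists pooled, 37 of 144 genes (25.7%, 18.8 to 33.6) had a member at a DMSO-free end and 65 (45.1%) at a DMSO-near end. All genes gave 30.1% and 34.2%, and the mitochondrial lists and those of other tissues lay above 34.2% at DMSO-near ends as well.

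The lists of histone acetylation, cell cycle and apoptosis had shares of 35.1% to 41.9% at DMSO-free ends, with intervals that include the 30.1% of all genes. Histone acetylation genes, the writers and erasers of the mark, had 13 of 31 (41.9%, 24.5 to 60.9) at DMSO-free ends, with Kat7 and Hdac9 at the top with scores of 6.46 and 5.30. Cell cycle and replication genes had 13 of 37 (35.1%), led by Rb1 and Mcm3 at 7.05 each. Apoptosis and stress genes had 13 of 36 (36.1%). Apaf1, the scaffold of the apoptosome, had a member with 7.05 near its start. Trp53, the p53 gene, had a DMSO-free member of 1417 bp with 6.46 over its start and a DMSO-near member of 851 bp with 6.97 over its 3′ end. Of gene families, proteasome subunits had 19 of 39 (48.7%, 32.4 to 65.2) and tRNA synthetases 16 of 37 (43.2%, 27.1 to 60.5), and the interval of the proteasome genes lay above 30.1%. Keratin genes were similar, with 45 of 112 (40.2%, 31.0 to 49.9). With 22 lists and 18 families read side by side, an interval of counting error that just clears the background marks no list as particular. Among receptor genes of smell, taste and pheromones 130 of 1511 (8.60%, 7.24 to 10.1) had such a member.

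Genes of other tissues had members as well. Taking liver, nerve, muscle and testis genes together, 34 of 97 (35.1%, 25.6 to 45.4) had a member at a DMSO-free end and 48 (49.5%) at a DMSO-near end, beside 30.1% and 34.2% of all genes, so that the first share was near the background. The 48 include Ptpn11, an entry of the neuronal list that the exhaustion list holds too. Testis genes had 13 of 24 (54.2%, 32.8 to 74.4) at DMSO-free ends, the top list with the full interval lists; with scores of at least 5 their share was 33.3%, below that of muscle genes. Dmc1, the meiotic recombinase, had 873 bp with 7.86 across its start. The neuronal factors Neurog2 and Neurod2 had members of 1883 and 1735 bp, both with 5.87 across their starts, and 3749 and 5052 bases covered within 5 kb against none in DMSO. Fga, the fibrinogen alpha chain of liver, had 308 bp with 5.87 across its start, and Pck1, the enzyme of hepatic gluconeogenesis, 2663 bp with 7.68 at a DMSO-near start. Muscle genes had 5 of 28 (17.9%) at DMSO-free and 19 (67.9%) at DMSO-near ends, with Myl2, a myosin light chain of heart, at 7.68 over its start. The DMSO-free share of the muscle list was not stable. It was 53.6% with scores of at least 5, where 5968 of all 20665 genes had such a member. Without intervals under 500 bp it was 39.3%, with 7609 of all genes. Apart from Ptpn11, the members named here lay at genes whose products are typical of other tissues. The mark at a gene says nothing here of its transcript.

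Marker genes of other blood cells, which a CD8+ preparation could hold, had a member at a DMSO-free end in 20 of 70 cases (28.6%, 18.4 to 40.6), near the 30.1% of all genes. B cell genes had 4 of 17, with Blk at 5.30, myeloid genes 7 of 20, with Cd14 and Tlr4 at 6.45 each, NK, CD4 and Treg genes 4 of 17, and erythroid and platelet genes 5 of 16, with Pf4 at 5.30. Over the whole of these lists, a DMSO interval lay within 1 kb of an end in 8 of 17, 8 of 20, 8 of 17 and 5 of 16 genes. Together these were 29 of 70 (41.4%), near the 42.4% of all genes. The part of other cells in the members was not tested. Of the 22 lists, 14 had a share at DMSO-free ends above that of all genes.

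**Figure D5:**
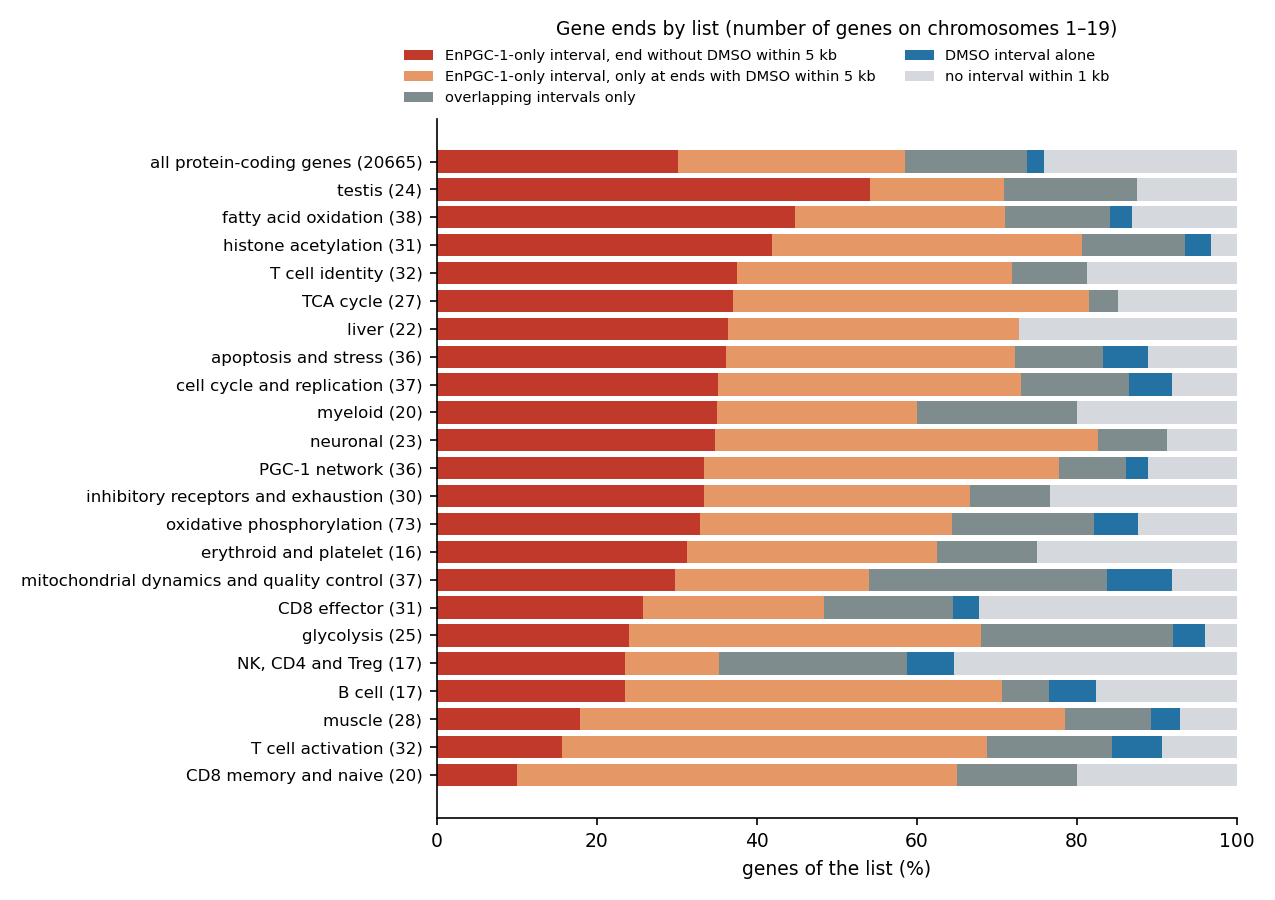
Percent of genes in each of the 22 lists, and in all 20665 protein-coding genes (top bar), by what lay within 1 kb of their ends: a member at a DMSO-free end (red), members at DMSO-near ends alone (orange), overlapping intervals without a member (grey), a DMSO interval alone (blue) or no interval (light grey). Lists are ordered by the red share, from memory and naive genes (2 of 20) to testis genes (54.2%), with all genes at 30.1%.

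Limits on score and width bear on the shares at DMSO-free ends. For equal numbers, the EnPGC-1 list was cut to its highest-scoring intervals, down to a score of 4.21, and the DMSO list was kept whole. Then 17.0% of DMSO-free starts and 8.35% of DMSO-free 3′ ends had a member. The shares of DMSO-free starts with a CpG ratio below 0.2 and of at least 0.6 were 5.91% and 25.2%. With scores of at least 5, which left 1835 DMSO against 52208 EnPGC-1 intervals, they were 18.7% and 15.3%, and 8.49% and 22.5%. Single lists moved in both directions. With scores of at least 5 the share of genes with a member at a DMSO-free end was 48.0% for glycolysis and 15.6% for T cell identity. Without intervals under 500 bp it was 35.0% for memory and naive genes. Of all 20665 genes, 5968 had such a member with scores of at least 5 and 7609 without intervals under 500 bp. Those limits also thin the DMSO list, so that more ends count as DMSO-free than with the full lists. With equal numbers and with scores of at least 5, the levels by kind of end and CpG ratio were lower than in the full lists. Starts stayed above 3′ ends and CpG-rich above CpG-poor starts in both of these settings.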

How the data were processed

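H3K27ac was measured by ChIP-seq in CD8+ T cells after DMSO or EnPGC-1. The submitters' processing notes name mm10 as the build and, as tools, the peak caller MACS2 2.2.2.20160309, the aligner Bowtie 1.1.2, the annotator ChIPseeker 11.16.1, Picard 0.118 and the trimmer Trimmomatic 0.38. What settings and control served to call peaks, and how replicates were treated, is not given in the sources used here. Input and IgG samples were not analysed here.

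The authors deposited 1 interval list for each treatment, with positions and a score taken here as −log10 of a q-value. That unit is inferred from the lowest scores, 1.31 in both lists, beside the 1.30 of a q-value of 0.05, and scores only rank or filter intervals. Entries that repeat an interval were combined, keeping the highest score, and their number is called summits. Coordinates are 1-based.

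Gene positions came from RefSeq (GRCm38.p6) and strand from the RefSeq promoter table, which limits statements on starts and 3′ ends to 79.6% of the genes. Promoter sequences were matched by gene identifier and by position within 100 bp, and no sequence of chromosome 18 was used. Of 675 list entries, all matched a gene by symbol or by a synonym, and 23 lay off chromosomes 1 to 19. A synonym can lead to a gene other than the one meant. The neuronal list holds Ptpn11, which the exhaustion list holds too, and whether it was meant there was not checked. The members and gene lists were chosen with earlier results of these data known. Named genes are those with the 10 highest scores and 5 widest members of each class, the 5 with most bases covered, and in each list the 2 best DMSO-free and 1 best DMSO-near member. Other list genes are named as examples, after their values were seen. Shares were computed in Python 3.11.15 with pandas 2.3.3, numpy 2.4.6 and SciPy 1.17.1, and the interval rule was tested on simulated data, with 0 disagreements in 50 sets. Alternatives tried were score, overlap, distance and width limits, merging of neighbours and inclusion of chromosome X. The files hold no depths, so the depth behind each interval is unknown.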

Additional observations from a re-analysis of the deposited data

How the results depend on the processing

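The number of members, 16406, was 10055 with both lists limited to scores of at least their own median, 6177 with scores of at least 5, 5326 with equal numbers of intervals, 28383 within 2500 bp of an end and 10559 after merging intervals within 1000 bp. Genes with a member numbered 12103, and 6064 and 5242 at scores of at least 5 and with equal numbers. Genes with a member at a DMSO-free end numbered 6220, and 2443 with equal numbers and 4046 where DMSO-free meant no DMSO interval within 10000 bp. The share of assignable members at starts, 56.9%, was 55.8% at the median scores, 55.6% at scores of at least 5, 55.8% with equal numbers, 61.9% within 500 bp, 52.1% within 2500 bp, 58.3% without intervals under 500 bp and 61.3% after merging.

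The median score and width of members move with any limit on score or width by construction. The score of 3.59 was 4.75 at the median scores, 5.87 at scores of at least 5, 5.30 with equal numbers, 3.69 where 50% overlap was needed to count as shared, 3.55 within 2500 bp, 3.99 without intervals under 500 bp and 3.69 after merging. The width of 570 bp was 745, 958, 746, 666, 535, 828 and 713 bp in the same order, and 598 bp within 500 bp. The median CpG ratio of DMSO-free member promoters, 0.699, was 0.675 at the median scores, 0.679 with equal numbers and 0.668 within 2500 bp.

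The shares by kind of end and by CpG ratio were chosen after the values were seen, and the same alternatives were run on them. For DMSO-free starts (46.9%) and 3′ ends (22.5%) they gave 29.97% and 17.8% at the median scores, 18.7% and 15.3% at scores of at least 5, 17.0% and 8.35% with equal numbers, 41.7% and 15.2% within 500 bp, 54.4% and 36.1% within 2500 bp, and 38.8% and 21.1% without intervals under 500 bp. For DMSO-free starts with a CpG ratio below 0.2 (16.8%) and of at least 0.6 (72.3%) they gave, in that order, 11.3% and 39.96%, 8.49% and 22.5%, 5.91% and 25.2%, 13.6% and 68.2%, 23.3% and 78.0%, and 12.7% and 53.5%. Starts stood above 3′ ends and CpG-rich above CpG-poor starts in each of these. The cause of the shifts was not tested beyond the smaller or larger number of intervals that each limit leaves.

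The number of lists with a share at DMSO-free ends above that of all genes, 14 of 22, ran from 13 to 16. Of 10 alternatives run on the single lists, 3 moved no share (the overlap rules and merging, which leave DMSO-free ends as they are). Of the 154 list shares under the other 7, 135 lay within the list's own binomial interval, and 15 of the 19 outside were lower. Most of the lower shares came from the setting with equal numbers. There the number among all 20665 genes was lower too, 2443 against 6220 with the full lists. No paired analysis was possible because each treatment has 1 interval list, which carries no replicate number, and no sample could be left out for the same reason. Depth limits all counts: an interval missing from the DMSO list may carry the mark below the threshold of that list.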
